A study of Cavia porcellus with 35 samples.

Results

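The genes ARPP21, CHST1, MESDC1, NECAB2 and PBX3 were followed through 3 generations of juvenile guinea pigs. They were chosen by their measured fold changes in the first generation (F1), in which sGC animals had less of their mRNA than controls in both females and males. They are 5 of the 10949 gene symbols listed in all 4 tables of the series, and all 5 passed the filter on low counts in every table. The values that chose them are therefore given as a description, and the question taken to the test is whether the lower level was kept in F2 and F3 females, animals that the choice did not use.

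The mRNA had been sequenced from punches of the medial prefrontal cortex of 35 guinea pigs killed on postnatal day 40, with 1 library per animal. F1 animals were born to mothers given repeated courses of betamethasone, a synthetic glucocorticoid (sGC, "Beta" in the labels), or saline in late gestation. There were 4 control and 4 sGC F1 females, and 5 control and 6 sGC F1 males. F2 and F3 females, again 4 control and 4 sGC in each generation, descended through the fathers, which were mated with untreated females, so that no F2 or F3 animal of the sGC line was itself carried by a treated mother. Per the study's methods, no litter gave more than 1 female to the molecular work. Whether F1 males shared a litter is not given in the sources used here. Nor is it given which F2 and F3 females shared a sire or a treated ancestor.

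The medial prefrontal cortex takes part in attention, working memory and the control of behaviour, and its excitatory neurons lie in layers with different gene expression. Betamethasone crosses the placenta and acts on gene transcription in the fetus. The 5 genes belong to no single pathway. ARPP21 encodes a phosphoprotein that protein kinase A modifies downstream of cAMP, that holds calmodulin when phosphorylated, and that is abundant in striatal and cortical neurons. NECAB2 encodes a neuronal EF-hand calcium-binding protein that binds adenosine and metabotropic glutamate receptors. PBX3 encodes a homeodomain transcription factor of the TALE class that binds DNA together with HOX and MEIS proteins. CHST1 encodes an enzyme that adds sulfate to the galactose of keratan sulfate, a sugar chain of the extracellular matrix. MESDC1, whose present symbol is TLNRD1, encodes an actin-bundling protein built like part of the talin rod.

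Levels are given as CPM, the reads of a gene relative to the total of its library, scaled by the TMM method of edgeR. Library totals ran from 12819964 to 19551079 reads in the 24 females and from 25697953 to 31763585 reads in the 11 males, and no member had fewer than 196 reads in any animal.

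Some libraries stood apart from the tissue named in their labels, and these are set out before the results. Markers of cortical excitatory neurons, of which 5 of 6 were listed (all but TBR1), summed to 1677.7 to 2009.5 CPM in F1 males and to 1697.0 to 2009.4 CPM in F2 females. In F1 females the same sum was 211, 295, 397 and 1225 CPM in the libraries labelled control and 1091 to 4479 CPM in those labelled sGC. In F3 females it was 605 to 1017 CPM among controls and 1169 to 1445 CPM under sGC, with no overlap. SLC17A7, which defines these neurons by loading glutamate into their vesicles, was as low as 171 CPM among F1 females and was never under 1330 CPM among F1 males. Markers of striatal medium spiny neurons, of which 10 to 13 of 16 were listed in a table with DRD1 and DRD2 among them, differed the other way. They summed to 993 to 3876 CPM in F1 female controls and 522 to 977 CPM in F1 female sGC animals. In F3 the striatal sums were 642 to 1685 CPM among controls and 403 to 830 CPM under sGC, while both groups of F2 females and F1 males stayed between 308 and 441 CPM. Oligodendrocyte markers (9 or 10 of 12 listed) were higher in sGC animals than in controls, without overlap, in F1 males (7743 to 13253 against 3642 to 6909 CPM), and with a small overlap in F2 females (5246 to 12103 against 3556 to 5454 CPM). In F1 females they ran the other way, at 3781 to 7631 CPM in sGC animals against 4826 to 16280 CPM in controls, and microglia markers (6 of 8 listed) were lower without overlap, at 175 to 197 against 235 to 284 CPM. Within F3, control animal 1 had the lowest sum of upper layer markers of its group (485 CPM, against 708 to 843 CPM in the other 3 controls) and the highest sum of oligodendrocyte markers (8766 CPM). In a tissue punch, fewer cells of a type and less RNA per cell cannot be told apart, and the part of these differences in the results below was not tested except where a value is given.

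**Figure D1:**
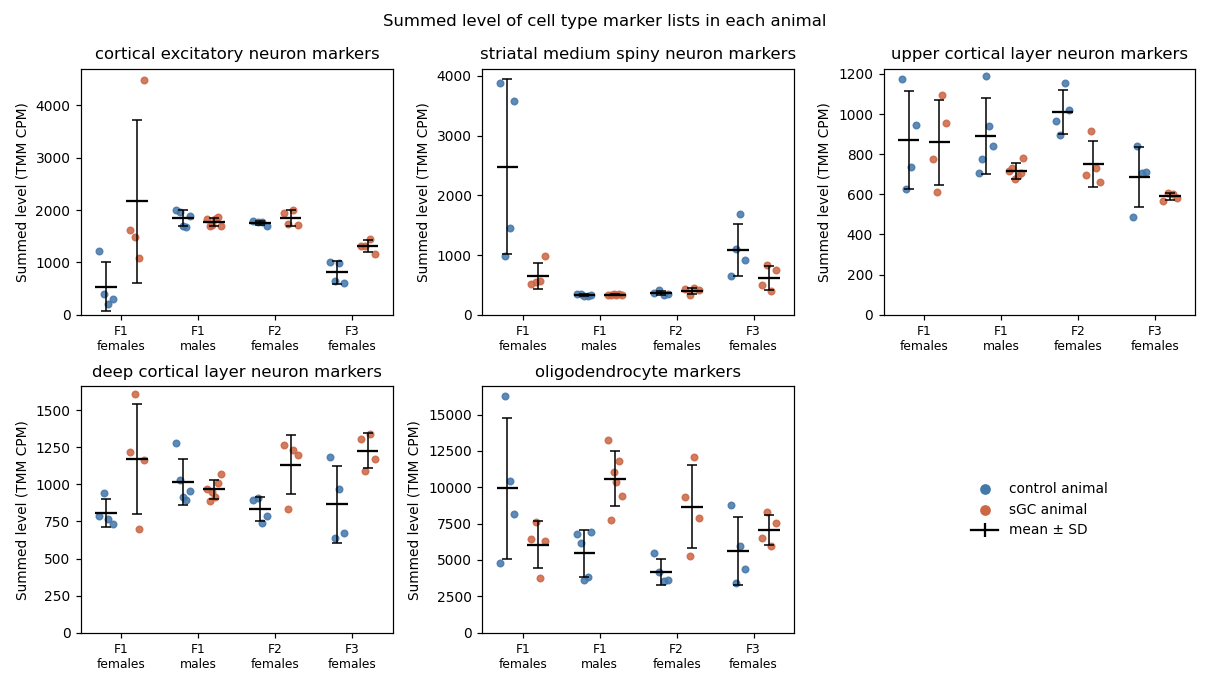
Summed level (TMM CPM, vertical axes from 0) of 5 lists of cell type markers in each animal, for control (blue) and sGC (orange) animals of F1 females, F1 males, F2 females and F3 females, with mean ± SD. F1 and F3 female controls lie low for cortical excitatory markers and high for striatal markers, and F1 male sGC animals lie above their controls for oligodendrocyte markers.

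In the F1 contrasts that chose the genes, all 5 were lower in sGC animals, by 0.35 to 0.93 on the log2 scale in females and by 0.23 to 0.86 in males. For reference, 7.33% of the 11268 genes tested in F1 females and 3.48% of the 11524 tested in F1 males were lower with an FDR under 0.05, and 7 of 11061 genes (0.0633%) were lower at that threshold in both. The other 2 genes inside the threshold were KRT80, a keratin, and a row listed as 4-Mar. That row is most likely the gene that the study lists as MARCH4, lower in both F1 groups. These FDRs are those of the quasi-likelihood test used here, not the authors' own. Just inside the threshold lay PBX3, whose larger FDR of the 2 tables was 0.0499. Just outside lay PEG10 with 0.0585, C2CD2L with 0.0630 and CALB1 with 0.0690. The study, by its likelihood ratio test, listed CALB1 as lower in both F1 groups. It listed ARPP21, MESDC1, NECAB2 and PBX3 there too, but not CHST1. Of the 5 genes, the study listed only ARPP21 among those changed in every group, F2 and F3 included, and as lower in each.

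ARPP21 read 573, 263, 393 and 556 CPM in the 4 F1 female controls and 223, 220, 307 and 269 CPM in the 4 sGC females, so control animal 2 lay among the sGC animals. In F1 males it had a median of 277 CPM in controls (255 to 339) and 228 CPM in sGC animals (213 to 242), and the groups did not overlap, as was the case for 2.04% of all genes in that contrast. NECAB2 read 113, 52.2, 68.9 and 92.4 CPM in F1 female controls against 53.4, 46.2, 30.5 and 41.5 CPM in sGC females. Its F1 male median was 39.3 CPM in controls (25.6 to 46.4) and 17.6 CPM in sGC animals (15.6 to 35.2), where a single sGC animal, number 6, reached the control range. MESDC1 read 52.4, 25.5, 34.6 and 43.2 CPM in F1 female controls and 17.3, 21.2, 23.7 and 20.7 CPM in sGC females. In F1 males its range was 18.6 to 24.1 CPM among controls and 15.4 to 19.0 CPM under sGC. CHST1 and PBX3 were separated in females, as MESDC1 was and as 11.2% of all genes were in that contrast, and they overlapped in males. CHST1 ran from 125 to 152 CPM in female controls and from 98.7 to 121 CPM in sGC females, and PBX3 from 27.6 to 32.7 CPM and from 16.6 to 24.5 CPM. In males CHST1 ran from 92.2 to 117 CPM among controls and 81.1 to 96.4 CPM under sGC, and PBX3 from 12.5 to 21.5 CPM and 8.98 to 14.2 CPM.

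The F1 female controls with the lowest cortical excitatory sums were animals 2, 3 and 4. Control animal 1, whose sum of 1225 CPM lay within the sGC range, had the highest level of all 5 genes among the F1 females, and also the highest striatal sum. With control animals 2, 3 and 4 left out, the log2 fold changes were -1.17 for ARPP21, -0.48 for CHST1, -1.34 for MESDC1, -1.40 for NECAB2 and -0.65 for PBX3. These values, from an analysis chosen after the data were seen, rest on 1 control, and since that animal was the highest for all 5 genes they had to lie further from 0.

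**Figure D2:**
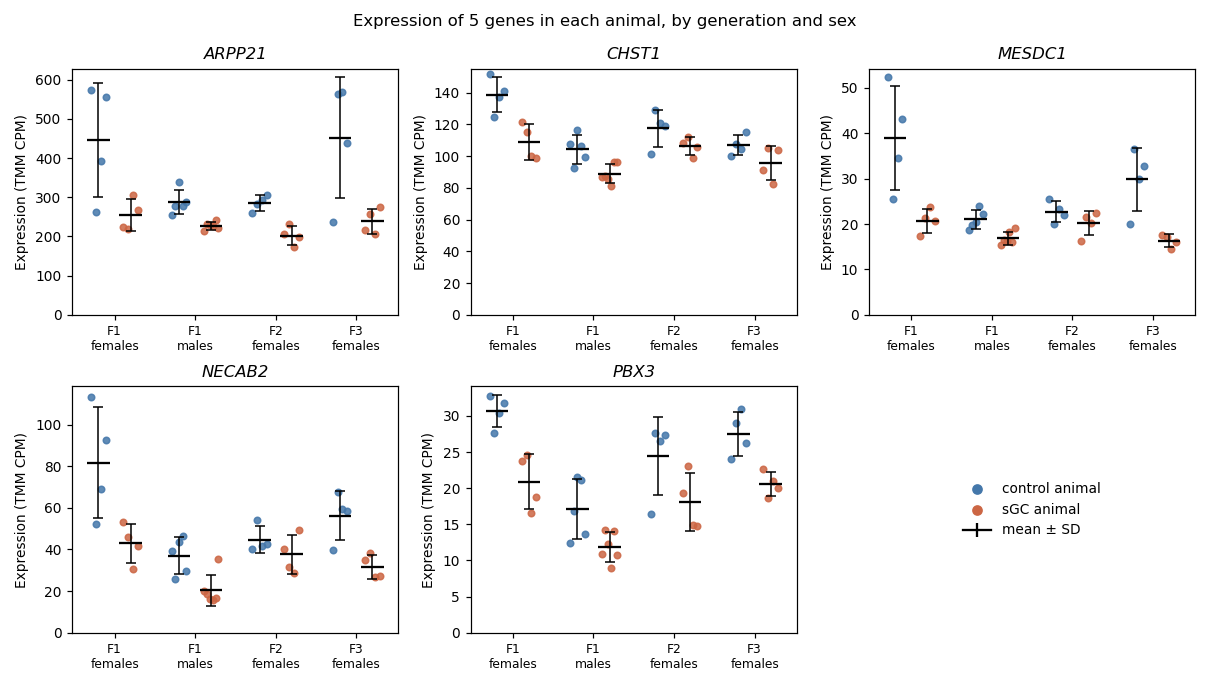
Expression (TMM CPM, vertical axes from 0) of the 5 genes in each of the 35 animals, for control (blue) and sGC (orange) animals, with mean ± SD. The sGC means lie below the control means in all 4 tables for each gene, with wide control groups for ARPP21, MESDC1 and NECAB2 in F1 and F3 females.

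In F2 females, all 5 genes had lower means in sGC animals, as did 47.9% of all genes tested, and 0 of 5 passed an FDR of 0.05 with edgeR's quasi-likelihood test, beside 0.126% of 11132 genes in this direction. The likelihood ratio test and DESeq2 each called 1 of 5, ARPP21, beside 1.97% and 1.82% of all genes lower in those tests. At an unadjusted p under 0.05, 2 of 5 were lower, ARPP21 and PBX3, beside 7.35% of all genes. The median log2 fold change of the 5 genes was -0.25, with 0.01 over all genes.

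ARPP21 had the clearest difference in F2. It read 259, 284, 293 and 305 CPM in the 4 controls and 206, 231, 172 and 198 CPM in the 4 sGC females. Every sGC animal lay below every control, a separation that 4.02% of all genes showed in this comparison. The log2 fold change was -0.50 (SE 0.09, 95% interval -0.69 to -0.30), a level 0.708 times that of controls, and its FDR of 0.0506 by edgeR's quasi-likelihood test was just over the threshold. The FDR fell under 0.05 in 6 of 8 other analyses of the same animals, to 5.9989e-05 with DESeq2, and rose to 0.171 when all 8 groups shared 1 fit. Without 1 animal it lay between 0.00586 (without sGC animal 2) and 0.167 (without control animal 3). The F2 groups overlapped in their sums of cortical excitatory (1697 to 1782 CPM in controls against 1714 to 2009 CPM) and striatal markers (338 to 415 against 328 to 441 CPM). Within the striatal list DRD1, a dopamine receptor gene, was higher in F2 sGC animals (log2 fold change 0.96, SE 0.16, FDR 0.0443 by the quasi-likelihood test). Of the 9 striatal genes tested in F2, DRD1 was the 1 higher at an FDR under 0.05, and 0 were lower. Over all 11132 genes, 17 were higher and 14 lower at that threshold. The log2 fold change was below 0 for 4 of the 9 striatal genes, with a list median of 0.00. Upper layer sums were 663 to 916 CPM in the F2 sGC animals and 898 to 1153 CPM in controls. Deep layer sums were 835 to 1263 CPM in the F2 sGC animals and 738 to 908 CPM in controls. With an FDR under 0.05, 1 of 11 deep layer genes was higher and 0 lower, and 0 of 11 upper layer genes passed. The median log2 fold change was 0.54 for the deep layer list and -0.72 for the upper layer list, with 0.01 over all genes.

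PBX3 read 16.4, 27.7, 26.5 and 27.3 CPM in F2 controls and 19.4, 23.1, 14.9 and 14.8 CPM in sGC females. Of the controls, animal 1 lay among the sGC animals and the other 3 above all of them. The log2 fold change was -0.44 (95% interval -0.85 to -0.03), with an unadjusted p of 0.0376 and an FDR of 0.281 by the quasi-likelihood test of edgeR.

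For the remaining 3 genes the F2 groups overlapped. NECAB2 read 40.2, 54.2, 41.5 and 42.7 CPM in controls and 40.4, 31.7, 28.9 and 49.6 CPM in sGC females, a log2 fold change of -0.25 (95% interval -0.60 to 0.10). MESDC1 read 25.6, 20.04, 23.3 and 21.9 CPM against 16.4, 21.6, 20.3 and 22.3 CPM, a log2 fold change of -0.18 (-0.43 to 0.07). CHST1 read 101, 129, 121 and 119 CPM against 108, 112, 99.0 and 106 CPM, a log2 fold change of -0.14 (-0.31 to 0.03). These intervals all hold 0. The F2 values were not tested against those of F1, which the choice of the genes had used.

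In F3 females the log2 fold changes ran from -0.92 to -0.16. All 5 genes were again lower in sGC animals on average, as were 51.8% of all genes, and 1 of 5, MESDC1, passed an FDR of 0.05, beside 0.271% of 11420 genes. At an unadjusted p under 0.05, 4 of 5 were lower, against 8.07% of all genes. The groups did not overlap for 3 of 5 genes, against 4.35% of all genes. The median log2 fold change of the 5 genes was -0.82, with -0.01 over all genes.

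MESDC1 read 20.1, 36.6, 29.8 and 32.7 CPM in F3 controls and 17.6, 17.1, 14.4 and 15.9 CPM in sGC females. All 4 sGC animals lay below all 4 controls, the nearest pair being control animal 1 and sGC animal 1. The log2 fold change was -0.87 (SE 0.17, 95% interval -1.24 to -0.50), a level 0.548 times that of controls, with an FDR of 0.0412 by the quasi-likelihood test.

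NECAB2 read 39.7, 67.7, 59.5 and 58.3 CPM in F3 controls and 35.1, 38.1, 26.7 and 27.1 CPM in sGC females, again without overlap. Its log2 fold change was -0.82 (SE 0.17, 95% interval -1.20 to -0.44), with an FDR of 0.0532 by the same test. PBX3 was also separated, at 24.0, 29.1, 30.9 and 26.2 CPM in controls and 22.7, 18.6, 21.0 and 20.04 CPM in sGC females. Its log2 fold change of -0.42 (SE 0.10, 95% interval -0.63 to -0.21) had an FDR of 0.0663.

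ARPP21 had the widest spread in F3. It read 237, 563, 567.6 and 439 CPM in controls and 217, 257, 206 and 274 CPM in sGC females, so that 3 controls lay far above the sGC animals and control animal 1 lay among them. The log2 fold change was -0.92 (SE 0.24, 95% interval -1.46 to -0.38), with an FDR of 0.0918 by the quasi-likelihood test. CHST1 read 100, 108, 105 and 115 CPM in controls and 91.5, 105, 82.1 and 104 CPM in sGC females. Its log2 fold change was -0.16 (95% interval -0.35 to 0.03), close to its F2 value.

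Control animal 1 was the lowest F3 control for all 5 genes, and the calls in F3 turned on single animals. Without it, 4 of 5 genes passed an FDR of 0.05, all but CHST1, with FDRs from 0.00244 for MESDC1 to 0.0192 for PBX3, and 2.15% of all genes were lower at that threshold in the same fit. When any 1 of the other 7 animals was left out instead, 0 of 5 passed. In those 7 fits 1 to 19 of all genes were lower at that threshold, against 31 with no animal left out. The likelihood ratio test of edgeR and DESeq2 each called 4 of 5, beside 1.90% and 1.69% of all genes lower in those tests. The same contrast also differed in its marker sums, with controls lower for cortical excitatory markers and higher for striatal markers as given above. Over all 35 animals with group means removed, Pearson's r with the striatal list was 0.70 for ARPP21, 0.50 for MESDC1 and 0.41 for NECAB2. It was 0.26 for CHST1 and 0.01 for PBX3. Only that of ARPP21 passed an adjusted permutation p of 0.05, and within tables it ran from -0.70 in F2 to 0.85 in F1 females. The part of the marker difference in the F3 fold changes of the 5 genes was not tested.

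With generation as a term, 4 of 5 genes were lower with an FDR under 0.05 over the 16 F2 and F3 animals together. CHST1 was the exception, and 1.76% of 11140 genes were lower at that threshold. The fit treated the 16 animals as independent, although their relatedness within and between generations is not given. ARPP21 had a log2 fold change of -0.71 (SE 0.14) and an FDR of 0.0196. MESDC1 stood at -0.52 (SE 0.13, FDR 0.0387), NECAB2 at -0.53 (SE 0.14, FDR 0.0434) and PBX3 at -0.42 (SE 0.11, FDR 0.0400), all by the quasi-likelihood test of edgeR. CHST1 had a log2 fold change of -0.15 (SE 0.06, 95% interval -0.27 to -0.03) and an FDR of 0.138. ARPP21 kept an FDR under 0.05 in 16 of 16 fits that left out 1 animal, whose log2 fold changes ran from -0.79 to -0.63. The other 3 did so in 5 fits (MESDC1), 4 fits (NECAB2) and 4 fits (PBX3), so that, of the 5 genes, 10 of the 16 fits kept ARPP21 alone. Over all genes, these fits called from 39 to 349 lower at an FDR under 0.05, against 196 in the full fit. Whether the calls of the other 3 genes changed more than those over all genes was not tested. The log2 fold change of each of the 5 genes stayed below 0 in all 16.

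**Figure D3:**
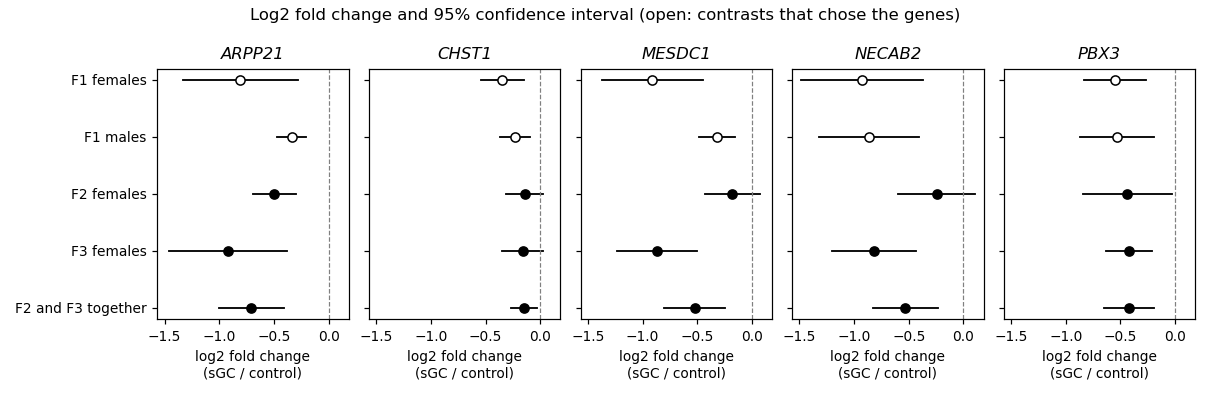
Log2 fold change of sGC against control animals (horizontal axes) with 95% confidence intervals for the 5 genes, in F1 females, F1 males, F2 females, F3 females and F2 with F3 females. Open points are the contrasts that chose the genes, filled points those in other animals. All points lie below 0, and in F2 the intervals of CHST1, MESDC1 and NECAB2 cross it.

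Whether the response differed between F2 and F3 was tested as an interaction over the same 16 animals. Of the 5 genes, 0 passed an FDR of 0.05 by edgeR's quasi-likelihood test, beside 0.0180% of 11140 genes. The likelihood ratio test and DESeq2 also called 0 of 5. Of all 11140 genes, the likelihood ratio test called 22 with a negative and 71 with a positive difference, and DESeq2 18 and 108. By the quasi-likelihood test 2 of 5 had an unadjusted p under 0.05, beside 11.5% of all genes. MESDC1 was lower by a further 0.69 on the log2 scale in F3 than in F2 (log2 difference -0.69, 95% interval -1.13 to -0.25, FDR 0.246). Its FDR was 0.0375 without F3 control animal 1 and ran up to 0.444 without any other single animal. NECAB2 had a log2 difference of -0.57 (-1.10 to -0.04, FDR 0.414) and ARPP21 of -0.42 (-0.99 to 0.14, FDR 0.564). For PBX3 the log2 difference was 0.02 (-0.45 to 0.49) and for CHST1 -0.02 (-0.26 to 0.23), and both intervals hold differences as large as the decrease itself, so that the 2 generations are not shown to be alike.

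Set in order over the 8 groups, the mean levels of ARPP21 and MESDC1 differed more among the control groups than among the sGC groups. The levels had been scaled within each table and not across tables, so these orders carry no test. Count columns of all males also had names of another form than those of all females, and male libraries were deeper, as given above. In these orders sex cannot be told apart from other differences between the 2 sets of libraries. Mean ARPP21 levels of the 4 control groups ran from 285 CPM (SD 19.6) in F2 females through 287 CPM (SD 31.1) in F1 males and 446 CPM (SD 147) in F1 females to 452 CPM (SD 155) in F3 females. The 4 sGC means lay closer, from 202 CPM (SD 24.2) in F2 to 255 CPM (SD 41.1) in F1 females. The largest group mean was 1.59 times the smallest among controls and 1.26 times among sGC groups. For MESDC1 the control means ran from 21.0 CPM (SD 2.10) in F1 males to 38.9 CPM (SD 11.5) in F1 females, 1.85 times, and the sGC means from 16.3 CPM (SD 1.43) in F3 females to 20.7 CPM (SD 2.62) in F1 females, 1.27 times. NECAB2 differed between tables in both arms, 2.21 times among controls and 2.10 times among sGC groups, with the highest mean in F1 female controls (81.7 CPM, SD 26.8) and the lowest in F1 male sGC animals (20.4 CPM, SD 7.46). PBX3 likewise ranged 1.79 times among controls and 1.76 times among sGC groups, and was lowest in F1 males, at 17.1 CPM (SD 4.16) in controls and 11.9 CPM (SD 2.03) in sGC animals. CHST1 varied least, from 104 to 139 CPM among controls and from 88.8 to 109 CPM among sGC groups. For every gene, each group in the order overlapped the next one in its range over animals.

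To see how the genes varied apart from treatment, log2 CPM was centred on the mean of each of the 8 groups and correlated over the 35 animals, with permutations within groups and adjustment over 30 relations. All 10 pairs of the 5 genes had a Pearson r above 0, and 6 of 10 passed an adjusted p of 0.05 (2 of 10 by Spearman's rho). A passing p did not mark a pair as unusual among all genes. The 95th percentile of r over all genes lay between 0.42 and 0.49 for the 5 members, and ARPP21 passed with PBX3 at r = 0.30 and with CHST1 at r = 0.37. CHST1 and NECAB2 were related most evenly, with r = 0.64 (adjusted permutation p = 0.00105) and rho = 0.64 (adjusted p = 0.00300). The r stayed at 0.65 without the 2 animals farthest from the median of CHST1, and it was 0.86 in F1 females, 0.71 in F1 males, 0.42 in F2 and 0.44 in F3. CHST1 and PBX3 had r = 0.52 (adjusted permutation p = 0.0187) and rho = 0.52 (adjusted p = 0.0278), with 0.48 without the 2 farthest animals. That relation did not hold within every table, since r was -0.30 in F3 and from 0.42 to 0.89 in the others. ARPP21 and MESDC1 had the highest r, 0.73 (adjusted permutation p = 0.0179), with rho = 0.47 (adjusted p = 0.0649). This relation did not hold within every table, since r was 0.93 in F1 females and 0.85 in F3 but 0.08 in F1 males and -0.15 in F2, and it was 0.51 without the 2 farthest animals. MESDC1 and PBX3 had an r of 0.01. Without the 8 F1 females, 3 of 10 pairs passed, ARPP21 with CHST1, ARPP21 with PBX3, and CHST1 with NECAB2.

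**Figure D4:**
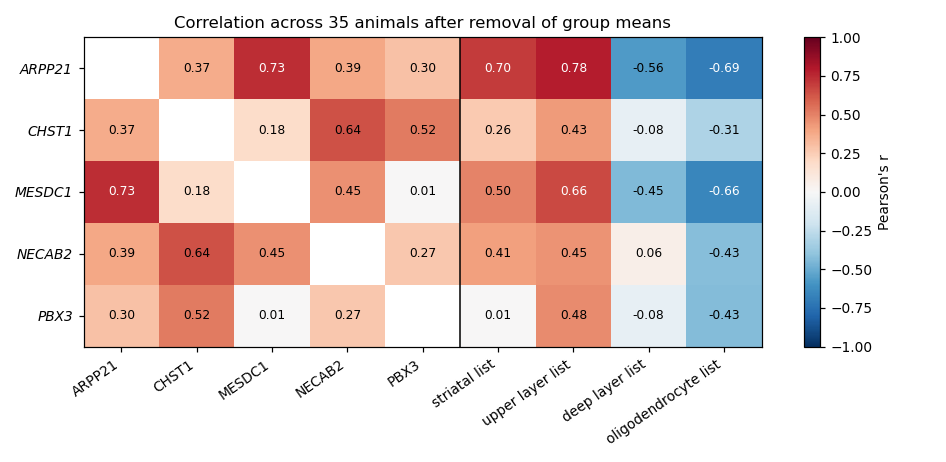
Pearson's r (colour, printed in each cell) over 35 animals between the log2 CPM of the 5 genes, and between each gene and the mean log2 CPM of 4 marker lists (right of the line), after the mean of each of the 8 groups was removed. The r values between genes run from 0.01 to 0.73, and those with the upper layer list are all positive, up to 0.78 for ARPP21.

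The same centred levels were set beside 4 lists of cell type markers. How many of all genes followed each list as closely was not computed, so no relation below is shown to be particular to these genes. All 5 genes went with the upper cortical layer list (10 genes measured in all tables). The relation was strongest for ARPP21, with r = 0.78 (adjusted permutation p = 0.000600) and rho = 0.77 (adjusted p = 0.000900). The r of ARPP21 was 0.95 in F1 females, 0.70 in F1 males, 0.83 in F2 and 0.86 in F3, and 0.71 without the 2 farthest animals. For the other 4 genes the r with the upper layer list was 0.43 (CHST1), 0.66 (MESDC1), 0.45 (NECAB2) and 0.48 (PBX3), with adjusted permutation p-values from 0.0102 to 0.0438. By rho, only MESDC1 of these 4 passed (adjusted p = 0.0283). Within tables, the sign turned for PBX3 in F1 females (-0.21) and NECAB2 in F2 (-0.19). Without the F1 females the relation kept an adjusted p under 0.05 for ARPP21, CHST1 and PBX3. ARPP21 varied against oligodendrocyte markers (r = -0.69, adjusted permutation p = 0.00750, and from -0.97 to -0.44 within tables) and against deep layer markers (r = -0.56, adjusted permutation p = 0.0102, and from -0.80 to -0.47 within tables). Over all 35 animals MESDC1 also varied against oligodendrocyte markers (r = -0.66, adjusted permutation p = 0.0150, and rho = -0.52, adjusted p = 0.0400). Its r with deep layer markers was -0.45 (adjusted permutation p = 0.0398, and rho = -0.44, adjusted p = 0.0649), and that of PBX3 with oligodendrocyte markers was -0.43 (adjusted permutation p = 0.0248, and rho = -0.42, adjusted p = 0.0617), turning to 0.11 in F1 females. With the striatal list ARPP21 had a pooled r of 0.70 (adjusted permutation p = 0.0187), but r was 0.85 in F1 females and 0.84 in F3 against -0.20 in F1 males and -0.70 in F2. Without the F1 females, ARPP21 had r = -0.54 (adjusted permutation p = 0.0921) with oligodendrocyte and r = -0.65 (adjusted permutation p = 0.0539) with deep layer markers.

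The marker lists also differed between sGC and control animals of F2 and F3 in the same joint fit. Of the upper layer list, 3 of 10 genes were lower and 0 higher with an FDR under 0.05 by the quasi-likelihood test, beside 1.76% lower and 2.27% higher among all genes. Of the deep layer list 3 of 11 were higher, of the cortical excitatory list 1 of 5, and of the oligodendrocyte list 1 of 9, with 0 lower in these 3 lists. Of the GABA interneuron list 2 of 7 were lower and 1 higher. The striatal list had 0 of 10, astrocytes 0 of 7, microglia 0 of 6 and the paraventricular nucleus list 0 of 3 in either direction, with 4, 0, 1 and 0 lower and 0 higher in each at an unadjusted p under 0.05. The 3 lower upper layer genes were CALB1, one of the genes just outside the F1 threshold, GLRA3 and RORB. The study had already listed CALB1 and GLRA3 as lower in every sGC group of these same animals, so the calls of these genes are no independent result. Whether the lower ARPP21 level went with the lower upper layer markers between treatment groups was not tested.

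**Figure D5:**
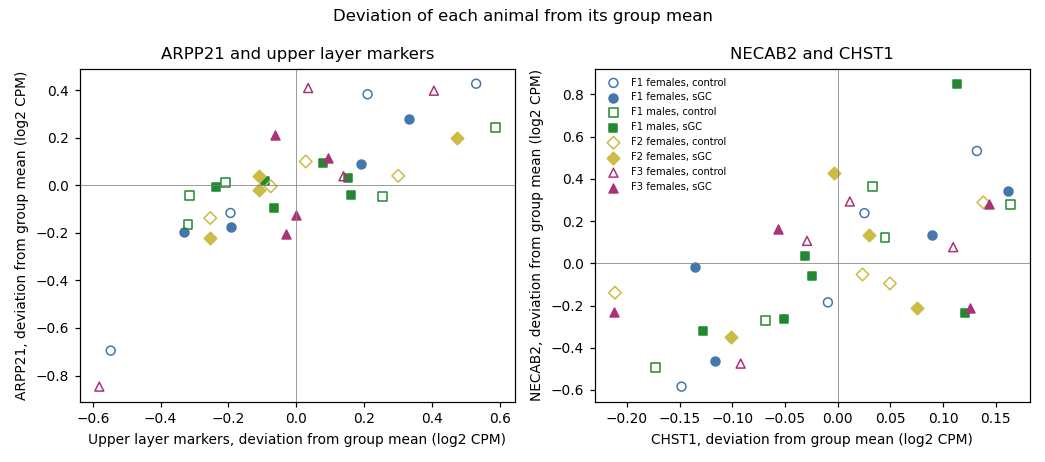
Deviation of each of 35 animals from the mean of its group on the log2 CPM scale, for ARPP21 against the mean of upper layer markers (left) and NECAB2 against CHST1 (right), with open symbols for control and filled symbols for sGC animals of each table. Both clouds rise from left to right, and 2 controls, one F1 female and one F3 female, lie lowest for ARPP21.

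The genes most like each member over the 35 animals were named by the highest r among 10724 genes, as a description with no test. ARPP21 was nearest to RERG (r = 0.92), a small GTPase, to PDE1B (0.88), a calmodulin-dependent phosphodiesterase, and to DGKB (0.85), a diacylglycerol kinase. MESDC1 was nearest to CDYL2 (0.82), TLE1 (0.79) and, like ARPP21, DGKB (0.79). CHST1 was nearest to PKIG (0.84), an inhibitor of protein kinase A, CRTC1 (0.82), a coactivator of CREB, and C2CD2L (0.77), one of the genes just outside the threshold in F1. NECAB2 was nearest to KRT80 (0.86), which lay inside that threshold, RYR3 (0.81), a calcium release channel, and PCK2 (0.81). PBX3 was nearest to ACVR2A (0.76), an activin receptor, FAM26E (0.76) and Pdyn (0.74), the precursor of dynorphin peptides.

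Relatives and partners of each gene were read in the same comparisons. Over F2 and F3 together, 8.96% of all genes were lower and 11.8% higher at an unadjusted p under 0.05, against which the counts at that level are to be read. Of the TALE homeobox genes and their cofactors, 7 of 11 listed beside PBX3 were tested in F2 and F3 together, and 1 was lower and 0 higher with an FDR under 0.05, a median log2 fold change of -0.16 against 0.00 over all genes. The lower gene was PBXIP1, a protein that binds PBX factors, at -0.20 (SE 0.05, FDR 0.0432 by the quasi-likelihood test). PKNOX1, a partner that dimerizes with PBX proteins, was at 0.12 (FDR 0.154).

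In the NECAB family and its receptor partners, 3 of 4 were tested in F2 and F3 together and 0 of 3 passed, with 1 of 3 lower and 1 of 3 higher at an unadjusted p under 0.05. NECAB3, the relative of NECAB2, ran opposite to it. It was higher in F3 sGC females by 0.83 on the log2 scale (SE 0.11, FDR 0.0106 by the quasi-likelihood test), with 0.06 (SE 0.12) in F2 and 0.44 (SE 0.13, FDR 0.0573) over both. It was also at 1.09 in F1 females (SE 0.31, FDR 0.0430) and at -0.02 in F1 males (SE 0.05). GRM5, the glutamate receptor that NECAB2 binds, was at -0.30 over both (SE 0.10, FDR 0.0947), and NECAB1 at -0.11 (FDR 0.565).

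Of 15 cAMP-regulated phosphoproteins and relatives of ARPP21, 12 were tested in F2 and F3 together and 0 of 12 passed in either direction, with a median of 0.05. At an unadjusted p under 0.05, 1 was lower and 3 were higher. Calmodulin genes Calm2 and Calm3 were at 0.15 (FDR 0.0955) and 0.19 (FDR 0.113), and the R3H domain relatives R3HDM1 and R3HDM2 at 0.17 (FDR 0.250) and 0.11 (FDR 0.172). The lower gene at the unadjusted level was PPP1R1B, also in the striatal list, which encodes the phosphoprotein DARPP-32. It stood at -0.50 (SE 0.24, FDR 0.236), with 0.00 (SE 0.11) in F2 and -0.98 (SE 0.37, FDR 0.213) in F3.

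Of 19 sulfotransferases and keratan sulfate genes, 15 were tested over F2 and F3 and 0 of 15 passed in either direction, with 1 lower and 1 higher at an unadjusted p under 0.05. The relatives of CHST1 stood at 0.07 (CHST2), 0.13 (CHST3), 0.03 (CHST4) and -0.02 (CHST7), with FDRs from 0.283 to 0.976. FMOD, a proteoglycan that carries keratan sulfate, had the largest log2 fold change over F2 and F3 together of the relatives and partners named here, 0.76 (SE 0.25, FDR 0.0917), while PRELP, a proteoglycan of the same family, was at -0.37 (FDR 0.246).

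Of 16 talin and focal adhesion genes read beside MESDC1, 1 was lower and 0 were higher with an FDR under 0.05, and the median was 0.01. The lower gene was ACTN1, an actin cross-linker, at -0.35 (SE 0.09, FDR 0.0415 by the quasi-likelihood test). VCL, which links talin to actin, was at -0.13 (FDR 0.129), ITGAV at -0.16 (FDR 0.281), and the talins TLN1 and TLN2 at 0.10 (FDR 0.351) and -0.03 (FDR 0.824).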

How the data were processed

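Libraries of enriched mRNA had been sequenced in single reads, 1 library per animal. Per the labels, TopHat2 and edgeR were used, and the read counter, genome build and annotation are not given in the sources used here. The authors deposited raw read counts by gene symbol, in 4 tables (F1 females, F1 males, F2 and F3 females). The tables also hold the authors' own comparison, in deposited columns of dispersion and likelihood ratio (score), log2 fold change and log2 CPM, p-value and FDR, which were not used. The protocol in the labels names the paraventricular nucleus and the source field the prefrontal cortex. Levels of OXT, AVP and CRH were at most 4.04 CPM and of SIM1 at most 14.9 CPM.

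These counts were tested with edgeR 4.0.16 in R 4.3.3 (filterByExpr, minimum count 10 and minimum total 15, TMM, quasi-likelihood test, log2 fold change of sGC against control, Benjamini-Hochberg adjustment over all genes tested). A gene was called at an FDR under 0.05. Levels over 35 animals were log2 CPM with a prior count of 2, and relations were tested with 100000 permutations of animals within groups. Alternatives were the likelihood ratio test, DESeq2 1.42.0, RLE and upper-quartile normalization, no filter, a filter of CPM above 1, 1 fit of all 8 groups, a replicate block, and each animal left out. The methods were tested on simulated data.

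The 5 members, the companion and marker lists and the tests were chosen with earlier results of these data known. The text names the 5 members, the 3 genes most correlated with each, relatives of the members and the 3 companion genes of smallest p in F2 and F3 together from each list, and the genes nearest the F1 threshold, of which a few are not reported here. KRT80, 4-Mar, DRD1, PPP1R1B, GLRA3 and RORB were named after their values were seen. All 5 symbols were matched in the tables, and no sequence was printed.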

Additional observations from a re-analysis of the deposited data

Results flagged for a closer look

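Within each of the 8 groups, the highest and the lowest animal was compared with the rest for each of the 5 genes by Dixon's test. Of 40 groups, 2 held an animal that stood apart, and chance gives about 1 in 20. NECAB2 in F1 male sGC animal 6 was 35.2 CPM, the highest of its group, in which the other 5 animals lay between 15.6 and 19.996 CPM. Without this animal the log2 fold change of NECAB2 in F1 males, a contrast that chose the gene, was -1.09. PBX3 in F2 female control animal 1 was 16.4 CPM, the lowest of its group, in which the other 3 lay between 26.5 and 27.7 CPM. Without this animal the log2 fold change of PBX3 in F2 was -0.59, with an FDR of 0.0640 by edgeR's quasi-likelihood test.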

How the results depend on the processing

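In F2 females, 0 of 5 genes were called, and 1 (ARPP21) with the likelihood ratio test, DESeq2, RLE or upper-quartile normalization, no filter, or a filter of CPM above 1. The count was 0 to 1 with each animal left out. In F3 the count of 1 became 4 with the likelihood ratio test and 4 with DESeq2, 2 with all 8 groups in 1 fit, and 0 to 4 with each animal left out. The count of 4 in F2 and F3 together was 1 to 4 with each animal left out. For a differing response between F2 and F3 the count of 0 was 0 to 1. Of the contrasts that chose the genes, the count of 5 was 0 to 5 in F1 females and 1 to 5 in F1 males with each animal left out, 2 in F1 males with all 8 groups in 1 fit, and 1 in F1 females with control animals 2, 3 and 4 left out. The 6 related pairs became 2 to 7 with each animal left out and 3 without the F1 females.

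No source states that a replicate number pairs a control with an sGC animal. Deviations of same-numbered animals from their group means had correlations from -0.33 to 0.34, and in no table were all above 0.1. These correlations gave no sign of pairing, but they cannot show that the animals were unpaired. With the replicate number as a block, 0 of 5 genes were called in F2, 0 in F3 and 1 over both. The count was 0 for a differing response, 3 in F1 females and 3 in F1 males. Over all genes, the block fits called 13 lower in F2, 4 in F3 and 26 over both. Without the block these counts were 14, 31 and 196. For a differing response the block fit called 9 of all genes. In F1 the block fits called 461 of all genes lower in females and 424 in males.

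Some signs turned. With upper-quartile normalization the F2 and F3 difference of PBX3 was -0.00177 and its r with the striatal list -0.00148. Without the F1 females r was -0.0244 for MESDC1 and PBX3, -0.152 for NECAB2 and the deep layer list, and -0.0404 for PBX3 and the striatal list. With each animal left out, the difference between F2 and F3 ran from -0.0707 to 0.0659 for CHST1 and from -0.0649 to 0.168 for PBX3. The r ran from -0.0862 to 0.0942 for MESDC1 and PBX3, from -0.0625 to 0.0942 for PBX3 and the striatal list, from -0.341 to 0.0285 for PBX3 and the deep layer list, and from -0.172 to 0.182 for NECAB2 and the deep layer list. The cause of these changes was not tested. Groups of 4 animals limit the precision, with SEs from 0.08 to 0.24 on the log2 scale in F2 and F3.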
